A study of Homo sapiens with 12 samples.

Results

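Cornified envelope genes are described here as a set of 10 human genes, chosen by symbol from the 58735 genes of the deposited expression table: SPRR1A, SPRR1B, SPRR2A, SPRR2D, SPRR3, IVL, KRTDAP, CNFN, CSTA and SCEL. Each symbol matched 1 row of the table, and each gene was read in all 12 libraries. The libraries are bulk RNA sequencing of KYSE180 and KYSE150, established cell lines from human oesophageal squamous cell carcinoma, grown in serum-containing medium. KYSE180 was sequenced as native, wild-type control cells and with overexpression of CDCA7, a nuclear zinc-finger protein. KYSE150 was sequenced as native, wild-type control cells and carrying shCDCA7, a hairpin RNA directed at CDCA7. Each of the 4 groups has 3 libraries. The controls are labelled as native cells, so a vector or a non-targeting hairpin is not named for them, and the labels do not say whether the modified cells were pools or clones. Whether the 3 libraries of a group were grown as separate cultures is not stated, and every p-value therefore measures a spread between libraries that may be technical.

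The cornified envelope is the insoluble protein shell that forms under the plasma membrane of squamous cells as they leave the basal layer and differentiate. Transglutaminases cross-link precursor proteins to one another: involucrin (IVL) lays down the scaffold, and the small proline-rich proteins (SPRR genes) bridge other precursors. Non-keratinising epithelium such as the human oesophagus also makes envelope precursors, among them SPRR3, SPRR1A, SPRR1B, IVL and cystatin A (CSTA). Many of these genes lie together on chromosome 1 in the epidermal differentiation complex, and AP-1, a dimer of FOS and JUN family proteins, is a known regulator of several of them.

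The stretches that lie just before the start sites of 5 members are shown because 4 of these genes had most of their reads in KYSE180 with CDCA7 overexpression, whereas IVL, from the same cluster as the SPRR genes, had no read in any library. Each is 200 bases long, ends at the base before the RefSeq start site and reads 5′ to 3′ on the gene's strand (GRCh38.p14). SPRR1A lies at chr1:152983881-152984080, SPRR1B at chr1:153031003-153031202, SPRR3 at chr1:153001549-153001748 and IVL at chr1:152908346-152908545, all on the plus strand, and KRTDAP at chr19:35490465-35490664 on the minus strand. Capitals mark matches to the AP-1 motif TGANTCA, which reads the same on both strands.
SPRR1A: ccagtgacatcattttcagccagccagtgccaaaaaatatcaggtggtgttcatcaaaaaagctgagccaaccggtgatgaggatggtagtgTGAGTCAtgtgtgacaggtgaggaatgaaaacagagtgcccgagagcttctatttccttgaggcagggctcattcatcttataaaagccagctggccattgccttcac
SPRR1B: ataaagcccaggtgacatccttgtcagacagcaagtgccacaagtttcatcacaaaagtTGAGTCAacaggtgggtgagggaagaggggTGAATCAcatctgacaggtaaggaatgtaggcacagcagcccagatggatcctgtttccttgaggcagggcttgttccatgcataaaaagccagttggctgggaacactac
SPRR3: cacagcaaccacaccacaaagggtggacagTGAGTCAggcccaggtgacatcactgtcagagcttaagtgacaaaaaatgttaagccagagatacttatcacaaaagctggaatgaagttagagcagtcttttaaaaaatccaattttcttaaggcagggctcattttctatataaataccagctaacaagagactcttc
KRTDAP: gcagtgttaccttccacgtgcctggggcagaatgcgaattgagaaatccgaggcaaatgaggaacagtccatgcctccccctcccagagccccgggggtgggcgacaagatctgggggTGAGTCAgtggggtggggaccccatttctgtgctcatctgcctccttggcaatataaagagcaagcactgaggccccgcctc
IVL: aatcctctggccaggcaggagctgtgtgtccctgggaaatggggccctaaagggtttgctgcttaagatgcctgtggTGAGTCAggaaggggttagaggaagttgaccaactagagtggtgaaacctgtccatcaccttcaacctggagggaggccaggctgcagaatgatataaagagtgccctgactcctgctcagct

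The motif search covered the RefSeq promoter window of 300 bases, from 250 before to 50 after the start site, for the 8 members with an entry (SPRR2D and CSTA had none). An AP-1 match was present in 7 of these 8 windows, all but that of CNFN, and in 7.71% of the 35116 windows of all promoters. Counted from the start site, with bases before it negative, its first base lay at -108 in SPRR1A, -170 in SPRR3, -82 in KRTDAP and -123 in IVL. SPRR1B held 2 matches, at -141 and -111, the second with the letters TGAATCA. In SPRR2A the match lay at -197, and in SCEL at -49 with the letters TGACTCA. The short KLF motif CACCC, searched on both strands, was found in 7 of 8 windows, all but that of IVL, and in 59.9% of all promoters. It overlapped an AP-1 match by some letters in SPRR1B and KRTDAP. The ETS motif CCGGAAG was in none of the 8 windows and in 10.3% of all promoters, and the GRHL motif, also searched on both strands, in none and in 1.73%. A match describes the letters only, and IVL carries one without a read in these cells. The gene model of KRTDAP in the table starts further upstream than the RefSeq start used here.

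**Figure D1:**
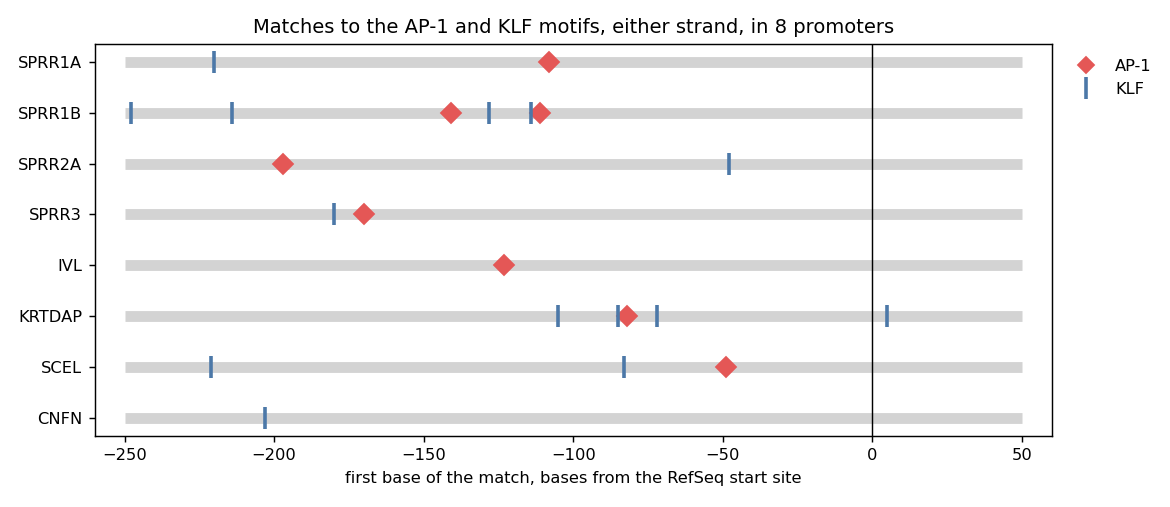
Position of matches to the AP-1 motif (diamonds) and the KLF motif (bars) in the RefSeq promoter windows of 8 members. The x axis is the distance in bases of the first base of a match from the start site, and grey bars span the window searched. Diamonds appear in 7 windows, between -197 and -49, and CNFN has none.

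Totals of recovered reads ran from 16.3 M to 19.6 M per library, so 1 read is 0.0511 to 0.0614 CPM. FPKM is the fragment count divided by gene length and by a factor of each library, which here was not its total of recovered reads. The targeted gene followed its labels. CDCA7 went from 17.4 to 24.0 FPKM across the KYSE180 controls to 44.6 to 59.1 across the overexpressing libraries. In KYSE150 it went from 25.6 to 27.4 in controls to 8.83 to 10.1 with shCDCA7. A pair of libraries stood apart from their groups. KYSE180 control 2 correlated with the other controls at 0.970 to 0.978 and with overexpressing libraries at 0.971 to 0.975, while controls 1 and 3 correlated at 0.982 with each other and at 0.958 to 0.973 with overexpressing libraries. The library shCDCA7 2 correlated with the other shCDCA7 libraries at 0.964 to 0.966, while those correlated at 0.993, and 11.2% of its reads were mitochondrial against 4.03 to 8.65% in the other 11 libraries. For SPRR1B, SPRR3 and CSTA in KYSE180 the difference is given with and without control 2. For CNFN, CSTA and SCEL in KYSE150 it is given with and without shCDCA7 2. Group means of genes named from other lists use all libraries of the group.

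The comparison in KYSE180 shows which envelope genes differ when CDCA7 is raised. SPRR1A and KRTDAP rose, from levels close to the detection limit to a few FPKM. SPRR1B and SPRR3 had higher means with overexpression but were also present in 1 control library, and did not pass the test. CNFN, CSTA and SCEL did not pass either, and the remaining 3 members had 5 reads or fewer in any group. Of the 10 members, 7 had enough reads to be tested and 2 were called higher, 0 lower, where 9.08% of all 15944 tested genes were called, 4.65% higher and 4.43% lower. A gene was tested when at least 3 libraries held the equivalent of 10 reads. SPRR1A and KRTDAP met this only through the 3 overexpressing libraries, and SPRR1B and SPRR3 through those and control 2. These genes could hardly be tested without being higher, so their count, calls and p-values are descriptions. In bulk RNA, a larger share of cells that express a gene and more RNA per cell cannot be told apart.

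Among the SPRR genes, SPRR1A (ENSG00000169474, chr1:152985231-152985500), an early transglutaminase substrate, gave 0.216, 1.196 and 0 FPKM in KYSE180 controls 1 to 3, and 6.87, 3.72 and 4.82 FPKM in overexpressing libraries 1 to 3. All 3 overexpressing libraries lay above every control, as for 17.7% of all tested genes, with 72 reads in all against 7. The control reads are too few for a ratio, and the rise was 2.11 on the scale of log2(FPKM + 1) (SE 0.31, limma-trend adjusted p = 0.0148). Only overexpressing libraries met the read minimum for SPRR1A, so this p-value and the calls below are descriptions and no usable test. SPRR1A was called in 10 of 15 alternatives, with adjusted p between 0.00115 and 0.0802. The call was lost without control 1 (2.02, adjusted p = 0.0670), without overexpression 1 (1.92, 0.0748), without overexpression 3 (2.14, 0.0756) and with no filter on low values (0.0802). The model of SPRR1A in the table holds 270 bases, of which 267 are coding, inside a RefSeq gene of 1734 bases, and its FPKM is per those 270 bases.

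SPRR1B (ENSG00000169469, chr1:153031202-153032900), the closest relative of SPRR1A, gave 0.188, 5.47 and 0 FPKM in the controls, in the same order, and 4.29, 3.15 and 6.22 FPKM in the overexpressing cells. Control 2, with 63 reads, sat inside the overexpressing range, and the other controls had 2 reads and 0 reads. With all 6 libraries the difference was 1.46 (SE 0.64, adjusted p = 0.175), and without control 2 it was 2.31 with an adjusted p of 0.00190, in a range from 0.00190 to 0.432 over the alternatives. Without control 2 only overexpressing libraries met the read minimum for SPRR1B, so that value is a description and no usable test. Of the 50-base words in SPRR1A transcripts, 11.3% also occur in SPRR1B, and 4.38% the other way, so a part of the reads of either could be assigned to the wrong gene.

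SPRR3 (ENSG00000163209, chr1:153001747-153003856), a precursor known for its abundance in oesophageal epithelium, showed the same single control. Its controls read 0, 0.971 and 0 FPKM, and its overexpressing libraries 1.63, 0.813 and 1.13 FPKM. Control 2 again lay between the overexpressing libraries, with 26 reads, and the other controls had none. The difference was 0.79 (SE 0.27, adjusted p = 0.0982) with all libraries and 1.11 (adjusted p = 0.00585) without control 2, and its adjusted p ran from 0.00585 to 0.289 over the alternatives. Without control 2 the controls held no SPRR3 read and so no spread, and that value is a description and no usable test. Control 2 was the highest of the 3 controls for SPRR1A, SPRR1B and SPRR3 alike.

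SPRR2A (ENSG00000241794, chr1:153056113-153057537) and SPRR2D (ENSG00000163216, chr1:153039725-153041931), from the largest SPRR subfamily, were too low to be tested. SPRR2A had 0 reads in the KYSE180 controls and 2, 0 and 1 reads with overexpression. SPRR2D had 0 reads in the controls and 2, 1 and 2 reads with overexpression. These values are at or under a floor of 3 reads per library, and no fold is given. The assignment of such reads is uncertain as well, since 32.7% of the 50-base words of SPRR2A and 19.3% of those of SPRR2D also occur in other SPRR2 genes.

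Among the scaffold and late precursors, IVL (ENSG00000163207, chr1:152908545-152911886), which encodes involucrin, had 0 reads in all 12 libraries. At this depth a floor of 3 reads is 0.0651 to 0.102 FPKM, depending on the library, and covers counting error only. SCEL (ENSG00000136155, chr13:77535674-77645263), which encodes sciellin, was low in KYSE180, with 0.249, 0.512 and 0.169 FPKM in control cells and 0.412, 0.398 and 0.413 FPKM in overexpressing cells. The overexpressing libraries lay within the range of the controls, and the difference was 0.11 (SE 0.10, adjusted p = 0.498).

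KRTDAP (ENSG00000188508, chr19:35487324-35495558), which encodes a small secreted protein of differentiating keratinocytes, had tighter replicates than SPRR1A. KYSE180 controls read 0.264, 0.163 and 0.307 FPKM, and overexpressing libraries 2.43, 2.53 and 2.38 FPKM. The groups lay far apart, with 9 reads in the controls and 85 with overexpression, and control 2 was the lowest of the controls. As for SPRR1A, no ratio is given over so few control reads, and the rise was 1.47 (SE 0.10, adjusted p = 0.00206). For KRTDAP too only overexpressing libraries met the read minimum, so its p-values and calls are descriptions and no usable test. Leaving out each library in turn gave between 1.42 and 1.51 and kept the call, which was lost with no filter on low values (adjusted p = 0.0663, the highest of 15 alternatives, the lowest being 3.86e-06).

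CNFN (ENSG00000105427, chr19:42387019-42390287), which encodes the envelope component cornifelin, gave 2.90, 4.64 and 7.49 FPKM in control cells, against 10.5, 7.03 and 9.45 FPKM in overexpressing cells. Control 3 overlapped the lowest overexpressing library. The difference was 0.79 (SE 0.28, adjusted p = 0.107), and without control 3 it was 1.07 (adjusted p = 0.0273, range over the alternatives 0.0273 to 0.284). CSTA (ENSG00000121552, chr3:122325244-122341972), which encodes the cysteine protease inhibitor cystatin A, was the most abundant member, with 82.2, 41.0 and 107.7 FPKM in control cells and 120.6, 83.2 and 94.4 FPKM in overexpressing cells. The groups overlapped, control 2 was the lowest library, and the difference was 0.45 (SE 0.33, adjusted p = 0.389). Without control 2 the difference of CSTA was 0.06, so the library that held most control reads of SPRR1B and SPRR3 also held the least CSTA.

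Further measures moved with the KYSE180 groups beside these values. Mitochondrial reads made up 4.76 to 6.38% of the control libraries and 7.97 to 8.65% of the overexpressing ones. The summed level of 8 genes listed as markers of squamous epithelium, among them KRT5 and KRT14, was 1793 to 3765 FPKM in the controls and 4011 to 4674 FPKM with overexpression. However, limma-trend within KYSE180 called 0 of the 8, and limma-voom called 1. In 1 fit of all 12 libraries limma-trend called 4 of the 8 higher, and without control 2 it called 3. Calls among all tested genes ran from 19 to 2335 with 1 library left out. An unadjusted limma-trend p under 0.05 was reached by 4 of them and by 4777 of all 15944 tested genes. The part of these measures in the results on SPRR1A and KRTDAP was not tested.

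**Figure D2:**
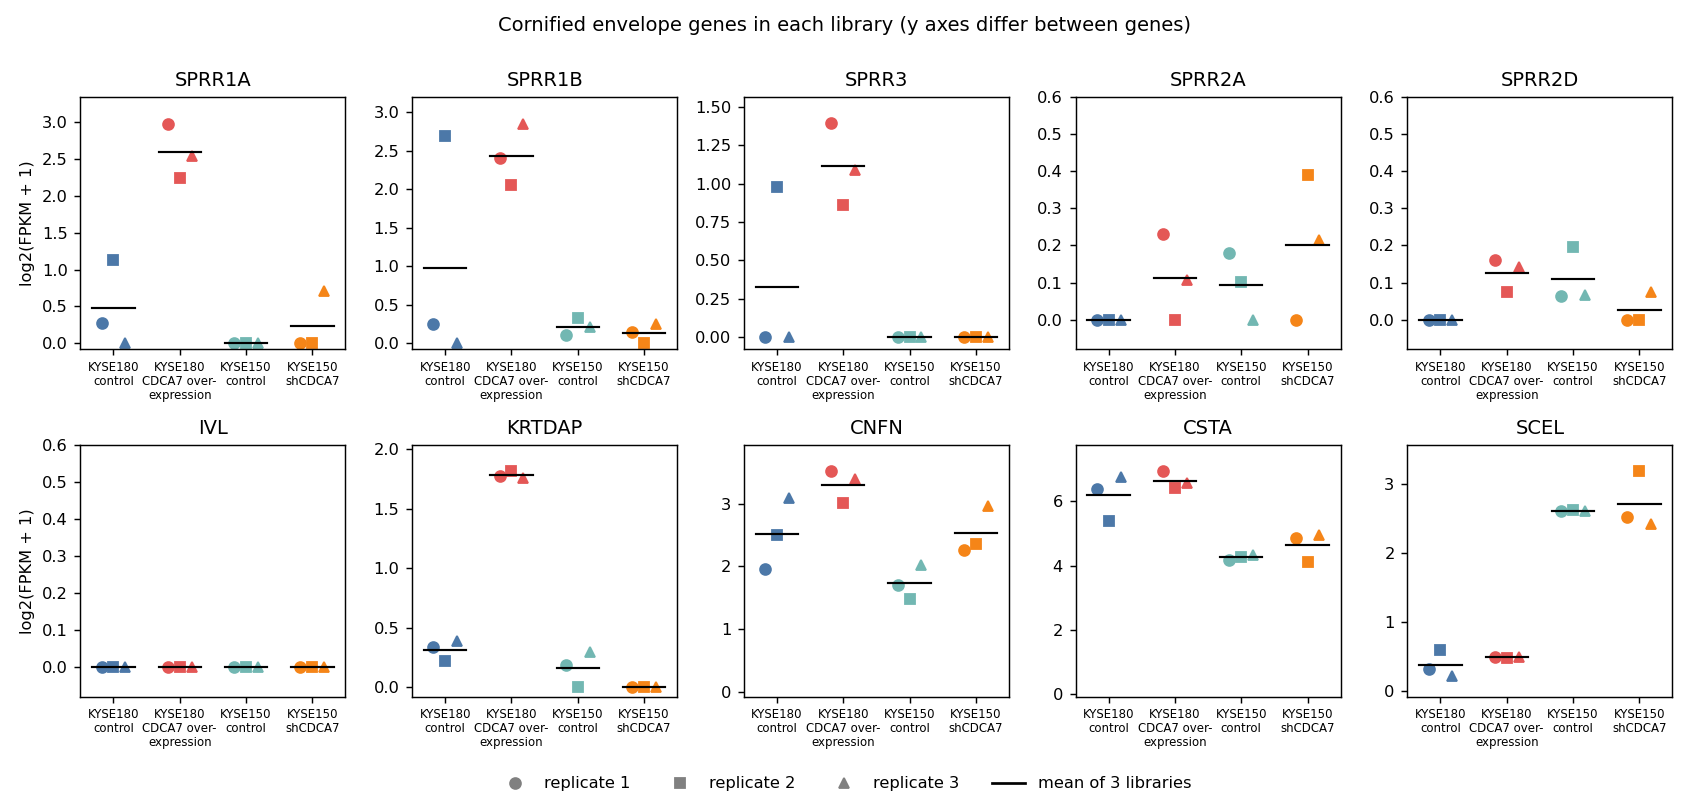
Level of each of the 10 genes in every library as log2(FPKM + 1), with 1 panel per gene and y axes that differ between panels. Points are libraries, their shape gives the replicate number and lines are means of 3 libraries. SPRR1A and KRTDAP in KYSE180 with CDCA7 overexpression lie above all other libraries, control 2 of KYSE180 reaches the overexpressing libraries for SPRR1B and SPRR3, and IVL is at 0 throughout.

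**Figure D3:**
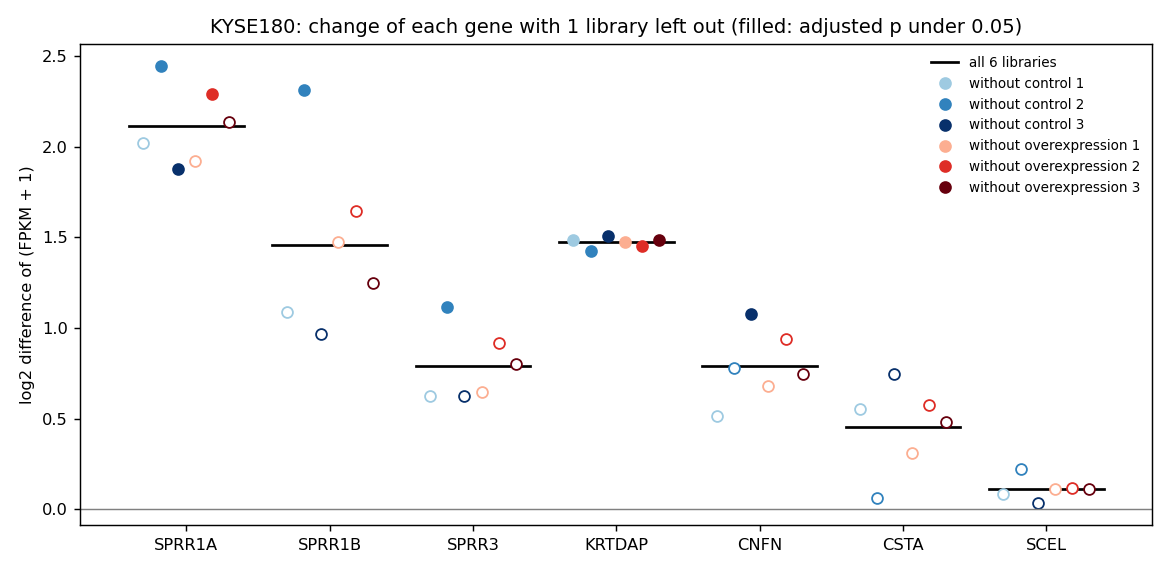
Difference of log2(FPKM + 1), CDCA7 overexpression minus control in KYSE180, for the 7 tested genes when 1 library is left out. Lines are the values from all 6 libraries, circles those from 5, and filled circles have an adjusted p under 0.05. KRTDAP stays between 1.42 and 1.51 and filled, and SPRR1B and SPRR3 are filled only without control 2. In that fit only overexpressing libraries met the read minimum for SPRR1B and SPRR3, so their filled circles are descriptions. For SPRR1A and KRTDAP this held with all libraries, so their filled circles are descriptions as well.

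The comparison in KYSE150 asks the same of cells in which CDCA7 is lowered. Only CNFN, CSTA and SCEL had enough reads to be tested, and 0 of these 3 were called by limma-trend, where 19.9% of 14342 tested genes were called, 10% higher and 9.86% lower. An unadjusted p under 0.05 was reached by 5268 of all tested genes and by 1 of these 3, CNFN. With limma-voom on the recovered reads 0 were called as well, and with upper-quartile scaling 1 was called. The median difference of the 3 genes was 0.37, and 0.12 when scaled to library totals.

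KYSE150 controls read 2.25, 1.79 and 3.07 FPKM for CNFN, and shCDCA7 libraries 3.78, 4.12 and 6.79 FPKM. Every shCDCA7 library lay above every control, as was the case for 25.3% of all tested genes. The difference was 0.79 (SE 0.23, adjusted p = 0.0576), and it was called in 3 of 15 alternatives, with adjusted p from 0.0156 to 0.197. It passed with upper-quartile scaling (0.84, adjusted p = 0.0486), with the replicate number as a block (0.79, 0.0490) and without shCDCA7 2 (0.87, 0.0156). For CSTA the controls read 17.2, 18.4 and 19.2 FPKM, and the shCDCA7 libraries 28.0, 16.1 and 29.6 FPKM. Here shCDCA7 2 lay below all controls and the other treated libraries above them. The difference of CSTA was 0.37 (SE 0.23, adjusted p = 0.286) with all libraries and 0.63 (adjusted p = 0.000160) without shCDCA7 2, in a range from 0.000160 to 0.790 over its alternatives. Fits with 1 library left out called between 545 and 7982 of all 14342 tested genes, so a call there can be common.

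SCEL read 5.07, 5.16 and 5.05 FPKM across the KYSE150 controls, against 4.72, 8.06 and 4.32 FPKM across the shCDCA7 libraries. For SCEL the library shCDCA7 2 was above all controls and the other treated libraries were below them. The difference was 0.09 (SE 0.21, adjusted p = 0.780), and without shCDCA7 2 it was -0.14 (adjusted p = 0.0955, range over the alternatives 0.0955 to 0.863). For both genes, then, the sign in shCDCA7 2 was opposite to that in the other shCDCA7 libraries.

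The other members were at the edge of detection in KYSE150. SPRR1A had 0 reads in the controls and 0, 0 and 3 reads with shCDCA7. SPRR1B had 1, 3 and 2 reads in the controls and 1, 0 and 2 with shCDCA7. SPRR3 and IVL had none in these 6 libraries. SPRR2A had 2, 1 and 0 reads in the controls and 0, 3 and 2 with shCDCA7, and SPRR2D had 1, 3 and 1 against 0, 0 and 1. KRTDAP had 2, 0 and 3 reads in the controls and 0 in all shCDCA7 libraries. No fold is given for these members, which stayed at or under 3 reads in every KYSE150 library.

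**Figure D4:**
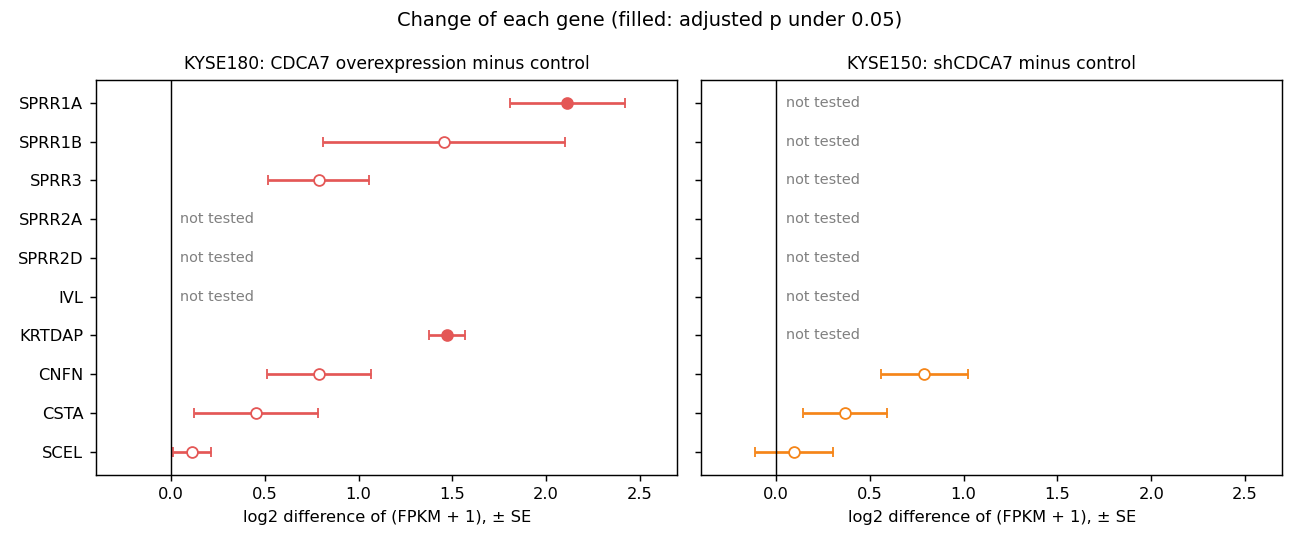
Difference of log2(FPKM + 1) between manipulated and control libraries for each gene, with its standard error, in KYSE180 (left) and KYSE150 (right). Filled circles have an adjusted p under 0.05. Only SPRR1A (2.11) and KRTDAP (1.47) in KYSE180 are filled, and genes with too few reads are written as not tested. Both filled genes met the read minimum only through overexpressing libraries, so their filled circles are descriptions.

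The untreated lines can be set beside one another in 1 fit of all 12 libraries, which shares its KYSE180 and KYSE150 controls with the comparisons above. Of 17088 tested genes 58% were called between the control groups, 33.4% higher in KYSE180 and 24.6% lower, so a call is common here. Of 7 members in the fit 2 were called higher and 1 lower. CSTA was higher in KYSE180, at 77.0 ± 33.6 FPKM (SD, n = 3) against 18.2 ± 1.01, a log2 difference of 1.91 (SE 0.31, adjusted p = 0.000297). CNFN was higher in KYSE180 as well, at 5.01 ± 2.32 against 2.37 ± 0.647 FPKM (0.78, SE 0.28, adjusted p = 0.0327). That call held in 12 of 20 alternatives, and was lost without KYSE180 control 2 or 3 (adjusted p = 0.0628 and 0.138) and without KYSE150 control 1 or 2 (0.0780 and 0.112), in a range from 0.00756 to 0.138. SCEL went the other way, at 0.310 ± 0.179 FPKM in KYSE180 against 5.10 ± 0.0589 in KYSE150 (-2.23, SE 0.18, adjusted p = 9.25e-07). CSTA and SCEL were called under all 20 alternatives. SPRR1A, SPRR1B, SPRR3 and KRTDAP met the read minimum only through the overexpressing libraries, joined by KYSE180 control 2 for SPRR1B and SPRR3, so the control groups alone give them no usable test. Over their 3 libraries the KYSE180 controls held 7, 65, 26 and 9 reads of these genes, and the KYSE150 controls 0, 6, 0 and 5.

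Set in order of FPKM, which is per length of each gene's model, the members fell into few clear steps. In KYSE180 controls CSTA ranked 382 among 19951 protein-coding genes and CNFN 7018, and their libraries did not overlap. Next came SPRR1B (1.89 ± 3.10 FPKM), SPRR1A (0.471 ± 0.638), SPRR3 (0.324 ± 0.561), SCEL and KRTDAP (0.245 ± 0.0740), whose ranges all overlapped. With overexpression the order was CSTA (99.4 ± 19.2 FPKM), CNFN (8.98 ± 1.76), SPRR1A (5.14 ± 1.60), SPRR1B (4.55 ± 1.55), KRTDAP (2.45 ± 0.0768), SPRR3 (1.19 ± 0.412) and SCEL (0.408 ± 0.00831). There only the neighbours SPRR1A and SPRR1B overlapped. In KYSE150 controls the order was CSTA, SCEL and CNFN, none of which overlapped, with the other members below 0.25 FPKM.

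The difference between the manipulations is overexpression minus control in KYSE180 less shCDCA7 minus control in KYSE150, and 5.57% of 17088 genes were called for it, 2.87% positive and 2.7% negative. For CNFN the estimates in the lines were nearly equal, with a difference of -0.00 (SE 0.40, adjusted p = 0.999), and the values for CSTA and SCEL were 0.09 (SE 0.44, 0.933) and 0.02 (SE 0.25, 0.979). These standard errors are wide, so unequal changes of the same size would not be seen. KRTDAP (1.63, SE 0.11, adjusted p = 8.00e-05) and SPRR1A (1.88, SE 0.40, adjusted p = 0.0239) passed the threshold, but both entered this fit through the overexpressing libraries alone and had 3 reads or fewer in every KYSE150 library. Their values therefore restate the rise in KYSE180 and do not show that KYSE150 responded otherwise. The same limit applies to SPRR1B (1.54, SE 0.76, adjusted p = 0.258) and SPRR3 (0.79, SE 0.31, 0.163). Without KYSE180 control 2 those were 2.40 (0.000370, range over the alternatives 0.000370 to 0.459) and 1.11 (0.00170, range 0.00170 to 0.324). Only overexpressing libraries then met the read minimum for SPRR1B and SPRR3, so these values are descriptions and no usable test.

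The other genes of squamous differentiation were read from 5 lists holding 129 symbols, of which 128 are in the table and 17 had no read in any library. All 17 are envelope precursors, among them LOR, which encodes loricrin, and most late cornified envelope (LCE) genes. In KYSE180, 15 of 71 tested genes were called higher and 6 lower, where 4.65% and 4.43% of all tested genes were. In KYSE150 16 of 59 were higher and 1 lower, where 10% and 9.86% of all tested genes were. With library totals and with limma-voom, each of the 5 lists held at least 1 lower call in KYSE150. Leaving out controls 1, 2 and 3 in turn left 1, 26 and 23 calls of either direction in KYSE180 and 4, 5 and 6 in KYSE150, and leaving out manipulated libraries 1, 2 and 3 left 0, 3 and 0 in KYSE180 and 16, 44 and 13 in KYSE150. Among all tested genes the same fits gave from 19 to 2335 calls in KYSE180 and from 545 to 7982 in KYSE150. Of the other envelope precursors, 0 were higher in either line by limma-trend fitted within the line or by limma-voom. With limma-trend in 1 fit of all 12 libraries 1 of 8 was higher in each line, and without shCDCA7 2 1 of 6 was higher in KYSE150. An unadjusted limma-trend p under 0.05 in either direction was found for 4 of 8 in KYSE180 and 2 of 6 in KYSE150. Among all tested genes it was found for 4777 of 15944 in KYSE180 and 5268 of 14342 in KYSE150. TCHH, which encodes trichohyalin, fell from 16.2 ± 5.40 to 6.90 ± 0.914 FPKM in KYSE180 (-1.08, SE 0.24, adjusted p = 0.0379). HRNR, which encodes the filaggrin-like hornerin, fell there from 0.475 ± 0.155 to 0.101 ± 0.0510 FPKM (-0.42, SE 0.09, 0.0351), and FLG, which encodes filaggrin, fell in KYSE150 from 0.521 ± 0.0139 to 0.169 ± 0.103 FPKM (-0.38, SE 0.07, 0.0169). These calls held in 7 of 15 alternatives for TCHH, 7 of 14 for HRNR and 8 of 14 for FLG. TCHH, HRNR and FLG lie in the same differentiation complex as the SPRR genes, and in KYSE180 SPRR1A was higher where TCHH and HRNR were lower.

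Among cross-linking and processing enzymes, 3 of 15 tested were higher and 1 lower in KYSE180, and 4 of 10 were higher in KYSE150. The deiminases PADI3 (0.700 ± 0.456 to 3.67 ± 0.597 FPKM) and PADI1 (0.186 ± 0.0508 to 1.01 ± 0.101 FPKM) and the protease PRSS8 (13.9 ± 1.501 to 27.3 ± 3.34 FPKM) rose in KYSE180, and the kallikrein KLK10 fell (74.3 ± 25.2 to 32.7 ± 1.33 FPKM). PRSS8 rose in KYSE150 too (2.16 ± 0.124 to 6.15 ± 1.72 FPKM), with the kallikreins KLK5 (44.7 ± 2.02 to 68.6 ± 3.91) and KLK6 (0.375 ± 0.0439 to 0.826 ± 0.0334). In KYSE180 calls of PADI3, PADI1, PRSS8 and KLK10 held in 10 of 15, 11 of 14, 10 of 15 and 9 of 15 alternatives. In KYSE150 those of PRSS8, KLK5 and KLK6 held in 11 of 15, 14 of 15 and 9 of 14. Of the protease inhibitors, the class to which CSTA belongs, SLPI (80.4 ± 38.1 to 28.5 ± 6.49 FPKM) and SERPINB13 (3.40 ± 0.701 to 1.75 ± 0.0829) fell in KYSE180, where 2 of 8 were lower and 0 higher. The calls of SLPI and SERPINB13 each held in 8 of 15 alternatives. In KYSE150 SERPINB5 (21.0 ± 1.55 to 29.96 ± 3.65 FPKM) and SERPINB1 (12.7 ± 0.540 to 17.9 ± 0.291) rose, 2 of 9 being higher and 0 lower. Those calls held in 4 and 8 of 15 alternatives, and the list had 1 higher and 1 lower with library totals and 0 higher and 1 lower with limma-voom. Suprabasal keratins and surface genes gave 2 higher and 1 lower of 9 in KYSE180 and 0 higher of 6 in KYSE150. In KYSE150 1 of the 6 had an unadjusted p under 0.05, as had 5268 of all 14342 tested genes. Those called in KYSE180 were KRT1, a keratin of differentiating epidermis (0.614 ± 0.447 to 3.38 ± 0.536 FPKM), the surface protein gene LYPD3 (5.34 ± 0.728 to 10.4 ± 2.10 FPKM) and, lower, the protease gene TMPRSS11E (1.23 ± 0.723 to 0.162 ± 0.0369 FPKM). Their calls held in 9 of 15, 8 of 15 and 7 of 14 alternatives.

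Regulators of squamous differentiation were called higher in 10 of 31 tested genes in KYSE180 and in 10 of 28 in KYSE150, with 0 lower in either, where 4.65% and 10% of all tested genes were higher. Their median log2 differences were 0.34 and 0.42, where the medians of all tested genes were -0.00 and 0.00. In KYSE180 the AP-1 subunits FOSB (2.82 ± 2.91 to 12.01 ± 0.809 FPKM), FOS (30.6 ± 16.1 to 99.4 ± 3.91) and JUN (39.6 ± 15.1 to 110.9 ± 2.85) led by size, and 4 of 7 subunits were higher, JUNB among them. In KYSE150 the 7 subunits had adjusted p between 0.0834 (JUNB) and 0.608 (FOS). Their log2 differences there ran from -0.54 (FOSL1) to 1.07 (JUNB, 121 ± 9.25 to 276 ± 121 FPKM). For the difference between the manipulations, FOSB (1.69, adjusted p = 0.111), FOS (1.54, 0.116), JUN (0.93, 0.213) and JUNB (0.29, 0.781) were not called. A rise of these subunits in KYSE180 alone is therefore not shown. The largest rises called in KYSE150 were those of HES1, a target of Notch signalling (10.8 ± 1.78 to 43.9 ± 16.5 FPKM), and of OVOL1 (0.502 ± 0.0735 to 2.43 ± 0.366) and KLF4 (5.25 ± 0.283 to 12.98 ± 4.37), which are transcription factors of epithelial differentiation. In KYSE180 calls held in 8 of 15 alternatives for FOSB and 9 of 15 for FOS and for JUN. In KYSE150 they held in 12 of 15 for HES1, 15 of 15 for OVOL1 and 6 of 15 for KLF4. The counts for regulators depend on single libraries. In KYSE180 0 were higher without control 1 or any 1 of the overexpressing libraries, 10 without control 2, with 1 lower, and 12 without control 3. In KYSE150 they were 4, 3 and 5 without controls 1, 2 and 3, and 9, 21 and 8 without shCDCA7 1, 2 and 3, with 5 lower without shCDCA7 2. Calls among all tested genes in these fits ran from 19 to 2335 in KYSE180 and from 545 to 7982 in KYSE150. With another scaling the regulators called higher ran from 8 to 10 in KYSE180 and from 8 to 12 in KYSE150, where up to 2 were lower.

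**Figure D5:**
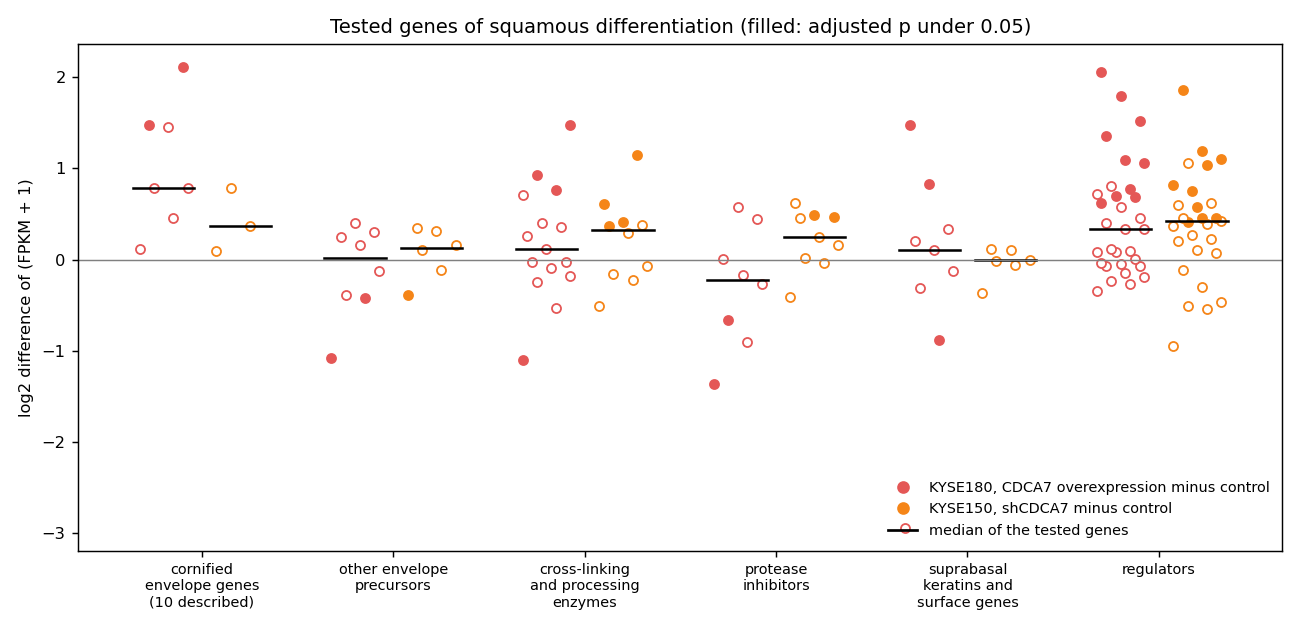
Difference of log2(FPKM + 1) between manipulated and control libraries for the tested genes of the 10 described and of 5 lists of other squamous differentiation genes, in KYSE180 (red) and KYSE150 (orange). Each circle is a gene, filled where the adjusted p is under 0.05, and lines are medians of the tested genes. Regulators have 10 filled circles above 0 in each line, and the other envelope precursors have none above 0.

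The labelled cell type was checked against marker lists. All 8 genes of the squamous epithelial list, some of which other epithelia also express, were detected in each group. Their summed level was 470 to 494 FPKM in KYSE150 controls and 750 to 805 with shCDCA7. There 5 of 8 were called higher, where 10% of all tested genes were. Without shCDCA7 2 these were 7 of 8, with 1 lower, and without controls 1, 2 and 3 in turn 1, 2 and 3. Calls of either direction among all 14342 tested genes ran from 545 to 7982 with 1 library left out. Markers of simple glandular epithelium summed to 838 to 928 FPKM in KYSE180 controls, 990 to 1278 with overexpression, 780 to 824 in KYSE150 controls and 684 to 938 with shCDCA7. In KYSE150 controls this sum was above that of the squamous list. Between manipulated and control libraries 1 glandular marker was called, MUC1, lower in KYSE180 (-0.68, SE 0.14, adjusted p = 0.0317). Fibroblast markers summed to at most 5.72 FPKM, leukocyte markers to at most 1.23 and endothelial markers to at most 1.62 in any library, and between manipulated and control libraries 1 gene of these 3 lists was called, the fibroblast marker FBLN2 in KYSE180 (0.40, SE 0.08, adjusted p = 0.0280). IVL, a usual marker of squamous differentiation, was not detected at this depth in either line.

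Genes of like pattern were ranked by Pearson correlation over the 12 libraries with the mean standardised deviation of the 7 tested members from the mean of their line. Among 9311 genes with a mean of at least 3 FPKM, high values were those of ETV5 (0.969), RPS15A (0.966), XAB2 (0.961) and LDOC1 (0.958), and 94 genes reached 0.9. ETV5, which encodes an ETS family factor, had 1.90 ± 0.732 FPKM in control KYSE180 cells and 7.85 ± 0.675 in overexpressing cells. LDOC1 had no read in KYSE150, so its likeness rests on the 6 KYSE180 libraries. The correlation is a description: the libraries share their lines and groups, and the profile follows mainly the contrast in KYSE180.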

How the data were processed

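The table deposited by the authors holds 1 FPKM value per gene and library. The submitters' processing notes name HISAT2 2.0.5, DESeq2 1.20.0 and the mouse build mm10. All 58735 genes match human GENCODE 29 on GRCh38 by identifier and position. Which program counted the reads remains unstated in these sources. FPKM multiplied by gene length gave whole reads for 100% of genes (tolerance 0.01 reads), which set the depth and the filter. The product for 1 read did not follow library totals. It was 46.7 to 51.4 in KYSE150 controls and 63.2, 73.1 and 56.9 with shCDCA7. There 1 read was 0.0511 to 0.0559 CPM, and 0.0611, 0.0587 and 0.0550 CPM. In KYSE180 it was 50.7 to 58.2 in controls and 54.3 to 61.8 with overexpression, at 0.0561 to 0.0614 and 0.0537 to 0.0594 CPM. Against totals, FPKM of manipulated libraries is thus raised over that of controls. Groups came from the sample labels.

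limma-trend (limma 3.58.1, R 4.3.3) was fitted to log2(FPKM + 1), within each line or over all 12 libraries, on genes with at least 10 reads, after scaling to the median depth, in 3 or more libraries and 15 in all. Called means a two-sided p, adjusted by Benjamini-Hochberg over all tested genes, under 0.05. The added 1 makes changes of low genes smaller than their FPKM ratios. Fits were tested on simulated data with the same spread in every library, which the deposited libraries do not have. Changes were placed only in genes with more reads on average than SPRR1A or KRTDAP, so that test does not cover genes as low as these. Correlations between libraries are Pearson's, across genes, which are not independent replicates.

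The members, lists and alternatives were chosen with earlier results of these data known. Named genes are the 10 members, CDCA7, up to 3 called genes per list, line and direction with the largest change and no overlap between groups, and the 5 genes of most like pattern, of which 1 is not reported here. LOR, JUNB, FOSL1, KRT5, KRT14, FBLN2 and MUC1 were chosen after their values were seen. Promoters come from RefSeq. Intervals and floors cover counting error only. Alternatives were another added constant, other filters and scalings, limma-voom on recovered reads, a threshold of 0.01, a replicate block, 1 fit of all libraries, and leaving out each library.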

Additional observations from a re-analysis of the deposited data

Results flagged for a closer look

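KRTDAP and SPRR1A were marked because the test of the difference between the lines, under the contrast of manipulated minus control libraries, passed its threshold. The value was 1.63 on the log2(FPKM + 1) scale for KRTDAP (SE 0.11, limma-trend adjusted p = 8.00e-05, called under all 20 alternatives) and 1.88 for SPRR1A (SE 0.40, adjusted p = 0.0239, called in 8 of 20, range 0.00208 to 0.242). Both were higher in 3 of 3 overexpressing libraries than in any KYSE180 control. They met the read minimum only through those libraries and had 3 reads or fewer in every KYSE150 library, so the test follows from the rise in KYSE180 and does not show that the changes differ between the lines.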

How the results depend on the processing

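Over 21 alternatives, the 24 tested values of the members gave 426 values, of which 368 kept direction and side of the threshold, 26 lost the call, 12 gained it and 20 changed sign. The causes were not tested. In KYSE180, no filter on low values gave 3 calls among all genes, 0 members and 0 other squamous genes (15775 more genes are then tested). A threshold of 0.01 gave 62, 1 and 1, and 1 fit of all libraries 2893 calls and 32 other squamous genes. In KYSE150, no filter gave 1554 calls and 10 other squamous genes, a threshold of 0.01 gave 785 and 6, a minimum of 1 FPKM gave 11 other squamous genes and upper-quartile scaling 1 member. For the difference between the manipulations, no filter gave 530 calls, 1 member and 7 other squamous genes, limma-voom 530, 1 and 2, a threshold of 0.01 189, 1 and 3, a minimum of 1 FPKM 7 other squamous genes, and an added 0.1 1 member. The comparison of control lines stayed within 1.5 times its counts.

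SCEL in KYSE150 was -0.13 with library totals and -0.16 with limma-voom. The difference between the manipulations, near 0 for 3 members, was 0.0915 and 0.0132 for CNFN with totals and limma-voom, and -0.0529 for CSTA and -0.14 for SCEL with upper-quartile scaling. The median of all genes moved by more than 0.1 with totals in KYSE150 (-0.16), and with limma-voom, which also changes the model and the log scale, in KYSE150 (-0.27), KYSE180 (-0.13) and the difference (0.13). Calls split into 776 higher and 3015 lower and 773 and 3016 in KYSE150 (against 1440 and 1414). In KYSE180 they split into 502 and 1229 with totals and 608 and 1497 with limma-voom (against 741 and 706). For the difference they split into 642 and 388 with totals, 376 and 607 with upper-quartile scaling and 382 and 148 with limma-voom (against 491 and 461).

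Leaving out any 1 of its libraries moved the count of all calls by over 1.5 times in each line and in the difference, from 19 to 2335 in KYSE180, 545 to 7982 in KYSE150 and 289 to 1711 for the difference. Members called ran from 1 to 4, 0 to 2 and 1 to 4, and other squamous genes from 0 to 26, 4 to 44 and 3 to 19. SCEL in KYSE150 ran from -0.14 to 0.24 and SPRR1B between control lines from -0.0896 to 1.26. Differences between manipulations ran from -0.28 to 0.28 for CNFN, -0.30 to 0.38 for CSTA and -0.13 to 0.26 for SCEL.

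Same-numbered libraries did not deviate together (correlations of -0.07 to 0.04 in KYSE180 and -0.07 to -0.02 in KYSE150), so no sign of pairing by number was seen. Deviations from a mean of 3 libraries depend on one another, so this cannot exclude pairing. With the replicate block, KYSE180 had 603 calls and 13 other squamous genes, KYSE150 1001 calls, 1 member and 11 other squamous genes, and the difference 211 calls, 1 member and 4 other squamous genes.

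Depth limits SPRR2A, SPRR2D and IVL everywhere, and SPRR1A, SPRR1B, SPRR3 and KRTDAP in KYSE150, where 3 reads or fewer lie behind each value.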

Other observations

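Between the control groups, the other genes of squamous differentiation also differed in both directions. Of 76 tested, 41 were higher in KYSE180 and 19 higher in KYSE150, where 33.4% and 24.6% of all tested genes were. Cross-linking and processing enzymes gave 11 and 3 of 17, regulators 19 and 5 of 31, and suprabasal keratins and surface genes 3 and 6 of 9.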
